A study of Mus musculus with 6 samples.

Results

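The paraspeckle long noncoding RNA Neat1, its chromosomal neighbour Malat1 and 6 genes of paraspeckle or Neat1-binding proteins were examined in bEND.3 cells after knockdown of the long noncoding RNA Gm39822. The 8 genes, chosen by name (Neat1, Malat1, Nono, Sfpq, Pspc1, Rbm14, Tardbp and Hnrnpk), were found among the 49315 genes of the count table. The bEND.3 line, the only one used, consists of immortalized endothelial cells from mouse brain. A GapmeR is an antisense oligonucleotide with a stretch of DNA at its centre, and RNase H cleaves the RNA that this stretch binds. The GapmeR group (4 samples) received an LNA GapmeR against Gm39822 at 100 nM, and the Negative Control group (2 samples) received a negative control LNA GapmeR at 100 nM, both delivered with a lipofectamine reagent. No untransfected sample was analysed here, so what transfection with either oligonucleotide changed alike is shared by both groups. The oligonucleotides themselves differ between the groups. Other effects of the GapmeR against Gm39822 cannot be told apart from the loss of Gm39822. The labels do not say that the samples came from separate cultures, and p-values therefore measure only the spread between these samples, which may be technical.

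Paraspeckles are nuclear bodies built on the long isoform of Neat1. The proteins NONO, SFPQ and PSPC1, which share a domain family and pair with one another, coat the RNA, and RBM14 helps to hold the body together. TDP-43, the product of Tardbp, binds UG-rich RNA, including Neat1, and hnRNP K favours the long isoform over the short one that ends at an early polyadenylation site. Malat1 is transcribed next to Neat1 and resides in nuclear speckles, where splicing factors are stored. In endothelium, Malat1 is known for its part in vessel growth.

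Neat1 and Malat1 end in a like manner, and the ends are shown because they share runs of sequence. The rest of these RNAs was not searched for shared sequence. RNase P cuts behind an A-rich tract, which folds back on U-rich motifs into a triple helix that protects the end. The elements below were read on the minus strand of chromosome 19 of GRCm39, each in the only exon of its noncoding transcript, and capitals mark the 3 runs of letters, 11 to 16 bases long and 40 bases in all, that occur in both in the same order. The Malat1 element (chr19:5846010-5846097) is 88 bases long and is followed by 293 further bases in the annotated transcript, whereas the Neat1 element (chr19:5874736-5874829) is 94 bases long and ends the transcript.
Malat1-201: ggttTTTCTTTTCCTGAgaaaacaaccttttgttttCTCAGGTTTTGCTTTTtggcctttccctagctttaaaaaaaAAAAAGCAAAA
Neat1-201: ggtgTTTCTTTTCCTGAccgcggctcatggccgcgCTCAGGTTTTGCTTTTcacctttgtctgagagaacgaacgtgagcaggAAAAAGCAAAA

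Neat1 also holds UG repeats, the kind of sequence that TDP-43 binds. The motif TGTGTGTGTG was searched on the transcript strand, and runs that contained it were merged. Neat1-201 had 3 such runs and Malat1-201 had 0. The longest, 24 bases in capitals with 10 bases on either side, lies in the exon of Neat1 at chr19:5876045-5876088 on the minus strand of GRCm39.
Neat1-201: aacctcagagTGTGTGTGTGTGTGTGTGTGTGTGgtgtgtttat
Length matters for such a search. The motif was present in 3 of 3 annotated long noncoding transcripts within 20% of the length of Neat1-201 and in 31.2% of 32 transcripts within 20% of the length of Malat1-201.

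Gm39822, the targeted RNA, was low in the treated samples. Its counts were 2, 1, 4 and 2 in GapmeR 1 to 4 against 61 and 56 in the controls (log2 fold change -4.82, standard error 0.41, adjusted p = 8.819e-08). This and all other adjusted p-values come from the quasi-likelihood test of edgeR, adjusted by the method of Benjamini and Hochberg over all genes tested. Total counts were between 29261988 and 37117934 per sample. The 12 endothelial marker genes examined were all detected, of which 2 were higher and 7 lower after knockdown. Markers of other cell types also moved with the groups. The summed expression of 12 macrophage markers was 228, 209, 360 and 393 CPM (read counts scaled to the TMM-normalized size of the library) in GapmeR 1 to 4 against 178 and 172 CPM in the controls, with 1 of the 12 called higher and none at 0. Summed pericyte and smooth muscle markers (10 genes, 2 higher) were at 8.68 to 13.4 against 2.19 to 2.34 CPM, astrocyte markers (6 genes, 3 lower) at 260 to 275 against 288 to 304 CPM, and neuron markers (6 genes, 6 lower) at 28.6 to 51.1 against 64.2 to 64.7 CPM. Nearly all of the astrocyte sum came from Gja1, at 254 to 268 CPM after knockdown against 291 and 273 CPM, which was not called (log2 fold change -0.12, adjusted p = 0.179). The called pericyte and smooth muscle markers were Myh11 and Tagln. Myh11 was at 5.37 to 5.93 against 0.37 and 0.25 CPM, and Tagln at 1.76 to 2.77 against 0.29 and 0.75 CPM. Pdgfrb, Rgs5, Cspg4 and Kcnj8 were at most 0.68 CPM and were not called. Lyz2 and Cd68 made up most of the macrophage sum. Lyz2, not called, was at 79.1, 73.5, 168 and 206 CPM against 68.8 and 62.1 CPM. Cd68, called higher, was at 113 to 125 CPM against 87.2 and 89.5 CPM. The part of these cell types in the results below was not tested. In bulk RNA, fewer cells of a type and less RNA per cell cannot be told apart.

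All 8 genes passed the filter of at least 5 counts in at least 2 samples, which left 18234 genes for the test. Neat1, Sfpq and Rbm14 were higher after knockdown, Nono was lower, and Malat1, Pspc1, Tardbp and Hnrnpk did not pass the threshold of 0.05 on the adjusted p. The 3 higher and 1 lower of 8 stand beside a background of 25.4% of all genes tested called higher and 20.0% called lower, so that the share of the 8 that changed was near that of the genome. Neat1 was the only one of the 8 to be called with a change of at least 1.5-fold. Of all genes tested, 17.8% were called with such a change upwards and 7.62% downwards. In 4 of the 8 genes the GapmeR samples lay wholly above or below both controls, as they did in 59.2% of all genes tested. With 4 and 2 samples there are 15 splits, so that the exact permutation test, two-sided, cannot fall below 0.0667, which was its p for each of those 4 genes.

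**Figure D1:**
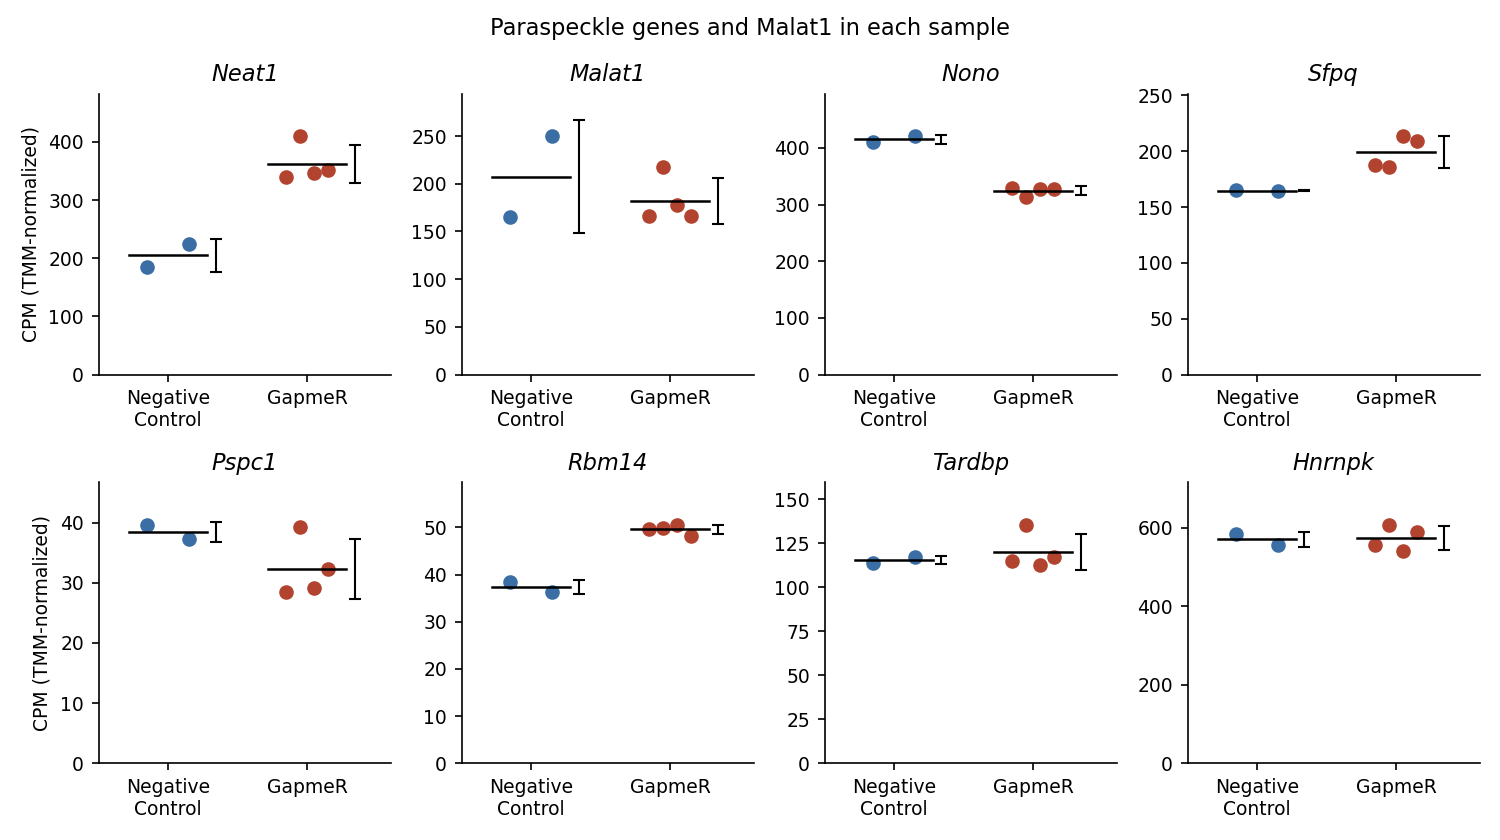
Expression of the 8 genes in each sample, in TMM-normalized CPM on linear axes that differ between panels. Points are samples, black lines group means, and bars at the right SDs (GapmeR n = 4, Negative Control n = 2). Neat1, Sfpq and Rbm14 lie above both controls in all 4 GapmeR samples, Nono lies below them, and the other genes overlap.

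Neat1 (ENSMUSG00000092274), on chromosome 19 of mm10 from 5824708 to 5845480, had the largest fold change of the 8 genes. Its normalized expression was 339, 409, 346 and 351 CPM in GapmeR 1 to 4, against 185 and 225 CPM in the controls. Every GapmeR sample was above both controls, and GapmeR 2 was the highest. Mean expression was 362 ± 32.2 CPM (SD, n = 4) with the GapmeR against 205 ± 27.9 CPM (SD, n = 2), a 1.76-fold difference (log2 fold change 0.82, standard error 0.10, 95% interval 0.61 to 1.03, adjusted p = 6.189e-06). The counts are of the whole gene, so that the short and long isoforms of Neat1, of which only the long one builds paraspeckles, were not told apart. The short isoform ends at a polyadenylation site, and the long one, like Malat1, in the element shown above. Whether the library captured these kinds of end alike was not tested.

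Malat1, which lies on the same chromosome from 5795690 to 5802672 of mm10, did not pass the test. It was at 166, 217, 178 and 166 CPM in GapmeR 1 to 4 against 165 and 250 CPM in the controls. The lowest and the highest of the 6 values were both controls, and the groups overlapped. The log2 fold change was -0.19 (95% interval -0.61 to 0.23, adjusted p = 0.428), which leaves room for a change of either sign. The sign rested on which control was kept. Without Negative Control 1 it was -0.44 (adjusted p = 0.0273), and without Negative Control 2 it was 0.16 (adjusted p = 0.431).

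The ratio of Neat1 to Malat1 counts does not depend on the scaling of the libraries. It was 2.04, 1.88, 1.94 and 2.11 in GapmeR 1 to 4, against 1.12 and 0.90 in the controls, with means of 1.99 ± 0.10 (SD, n = 4) and 1.01 ± 0.16 (SD, n = 2). The ratio was 1.98-fold higher after knockdown and did not overlap between groups (exact permutation test, two-sided, p = 0.0667, the smallest it can give). It combines the change of Neat1 with that of Malat1, which was not called, and is not a separate result. The ratios of counts were chosen after the values were seen.

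Of the genes of the paired proteins that coat Neat1, Nono was lower, Sfpq was higher and Pspc1 did not pass the test. Nono (chromosome X of mm10, 101429560 to 101448593) was at 330, 313, 327 and 328 CPM after knockdown and at 410 and 420 CPM in the controls. All GapmeR samples were below both controls, and the log2 fold change was -0.36 (adjusted p = 0.000571, standard error 0.07). Sfpq (chromosome 4, 127020716 to 127051101) was at 187, 186, 213 and 210 CPM after knockdown and at 165 and 164 CPM in the controls. It was higher in all GapmeR samples by 0.27 on the log2 scale (standard error 0.08, adjusted p = 0.00979), with samples 3 and 4 the highest. These are also the samples with the most macrophage marker counts, and without them the log2 fold change was 0.20 (adjusted p = 0.0844). Sfpq lost its call without either control as well, at 0.29 without Negative Control 1 (adjusted p = 0.0633) and at 0.29 without Negative Control 2 (adjusted p = 0.0699), and in a fit with a block for the replicate number at 0.20 (adjusted p = 0.0879).

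Pspc1 (chromosome 14, 56722441 to 56778318) was the least expressed of these partners. It was at 28.5, 39.3, 29.05 and 32.3 CPM in GapmeR 1 to 4, against 39.6 and 37.3 CPM in the controls. GapmeR 2 lay between the controls and the other 3 below both. Its log2 fold change of -0.25 (standard error 0.11, 95% interval before adjustment -0.49 to -0.0036) had the sign of Nono and an adjusted p of 0.0914. Without GapmeR 2 it was -0.36 (adjusted p = 0.00106), and with no filter on low counts -0.25 (adjusted p = 0.0135).

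Between the genes of these partners, the ratio of read counts differed between groups for Sfpq and Nono. It combines the changes of these genes given above and is not a separate result, and no protein was measured. There were 0.57, 0.60, 0.65 and 0.64 counts on Sfpq for each count on Nono in GapmeR 1 to 4, against 0.40 and 0.39 in the controls. This ratio was 1.54-fold higher after knockdown, with no overlap (exact permutation test, two-sided, p = 0.0667). The ratio of Pspc1 to Nono overlapped between the groups, at 0.086 to 0.13 after knockdown against 0.089 and 0.097 (fold 1.07, exact permutation p = 0.733).

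**Figure D2:**
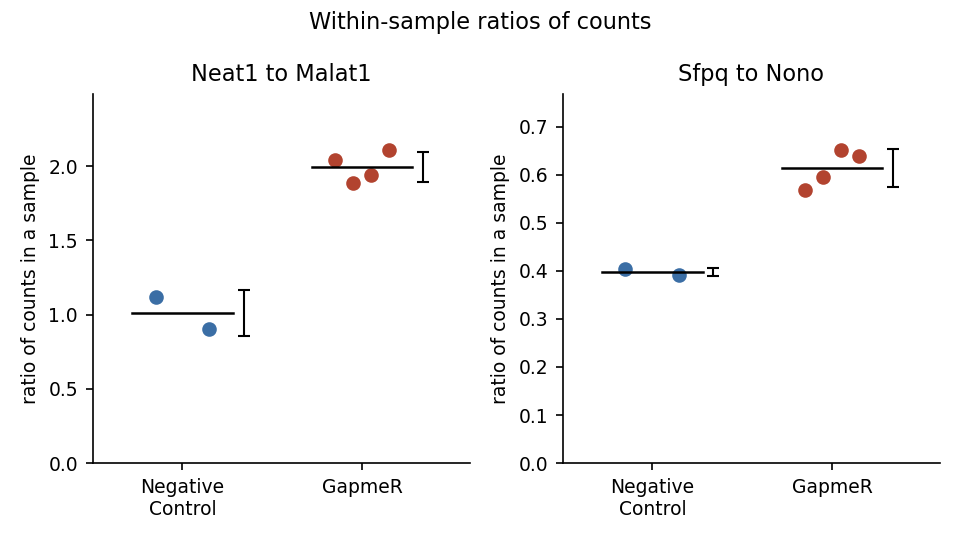
Ratios of the read counts of Neat1 to Malat1 and of Sfpq to Nono within each sample, on linear axes from 0. Points are samples, black lines group means, and bars at the right SDs (GapmeR n = 4, Negative Control n = 2). Neat1 to Malat1 was 1.88 to 2.11 in the GapmeR samples against 0.90 and 1.12 in the controls, and Sfpq to Nono was 0.57 to 0.65 against 0.39 and 0.40.

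Rbm14 (chromosome 19, 4800566 to 4811634) varied little within groups. It was at 49.6, 49.9, 50.5 and 48.2 CPM after knockdown and at 38.4 and 36.2 CPM in the controls. All GapmeR samples were higher, by 0.41 on the log2 scale (standard error 0.07, adjusted p = 0.000248).

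The genes of the Neat1-binding proteins TDP-43 and hnRNP K differed by less than the spread between samples. Tardbp (chromosome 4, 148612382 to 148627084) was at 115, 135, 113 and 117 CPM after knockdown and at 114 and 117 CPM in the controls. GapmeR 2 was the highest and the groups overlapped (log2 fold change 0.06, 95% interval -0.11 to 0.23, adjusted p = 0.589). Hnrnpk (chromosome 13, 58391132 to 58403343) was the most counted of the 8 genes. It was at 557, 607, 541 and 590 CPM after knockdown and at 584 and 557 CPM in the controls. The groups overlapped, and the interval of the log2 fold change, -0.15 to 0.17, leaves out a 1.5-fold change in either direction (estimate 0.01, adjusted p = 0.934).

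Levels of different genes can be compared only per length, and CPM were divided by the length of each gene's canonical transcript in kb. In the controls, Nono (147 ± 2.62 CPM per kb, SD, n = 2) was followed by Hnrnpk (113 ± 3.82), Sfpq (39.5 ± 0.12), Malat1 (26.3 ± 7.55), Tardbp (15.4 ± 0.28), Rbm14 (11.8 ± 0.49), Pspc1 (9.34 ± 0.40) and Neat1 (9.16 ± 1.25). The values of Pspc1 and Neat1 overlapped, and those of the other neighbours in this order did not. After knockdown Neat1 was at 16.1 ± 1.44 CPM per kb (SD, n = 4), beside Tardbp at 16.0 ± 1.38 and Rbm14 at 15.7 ± 0.31, and these 3 overlapped. Nono, at 115 ± 2.82, then overlapped Hnrnpk at 114 ± 6.03. This order depends on the length used. Per kb of all annotated exons of a gene merged, the control means were 76.0 CPM for Nono, 50.02 for Hnrnpk, 30.2 for Sfpq, 26.3 for Malat1, 14.8 for Tardbp, 9.18 for Rbm14, 9.16 for Neat1 and 6.57 for Pspc1. On this scale Neat1 overlapped Rbm14 and lay above Pspc1 in the controls, and Malat1 overlapped Sfpq. After knockdown Nono (57.2 to 60.4 CPM per kb) lay above Hnrnpk (47.5 to 53.3), and Neat1 (15.1 to 18.3) overlapped Tardbp (14.4 to 17.3) but not Rbm14 (11.9 to 12.4). On both scales the length used for Neat1 is that of the long isoform, so that its level per kb is understated to the extent that reads came from the short one.

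Among 8869 genes with a mean of at least 10 CPM, the genes whose log2 CPM followed Neat1 most closely over the 6 samples were Snhg12, a host gene of small nucleolar RNAs (Pearson r = 0.997), Stx16, which encodes a syntaxin (r = 0.996), and Prpf38b, a splicing factor gene (r = 0.996). For Malat1 they were Gm10036 (r = 0.974), Ccdc88a (r = 0.958) and Aebp2 (r = 0.946). These correlations are a description over 6 samples, and the genes compared share the library and depth of each sample.

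**Figure D3:**
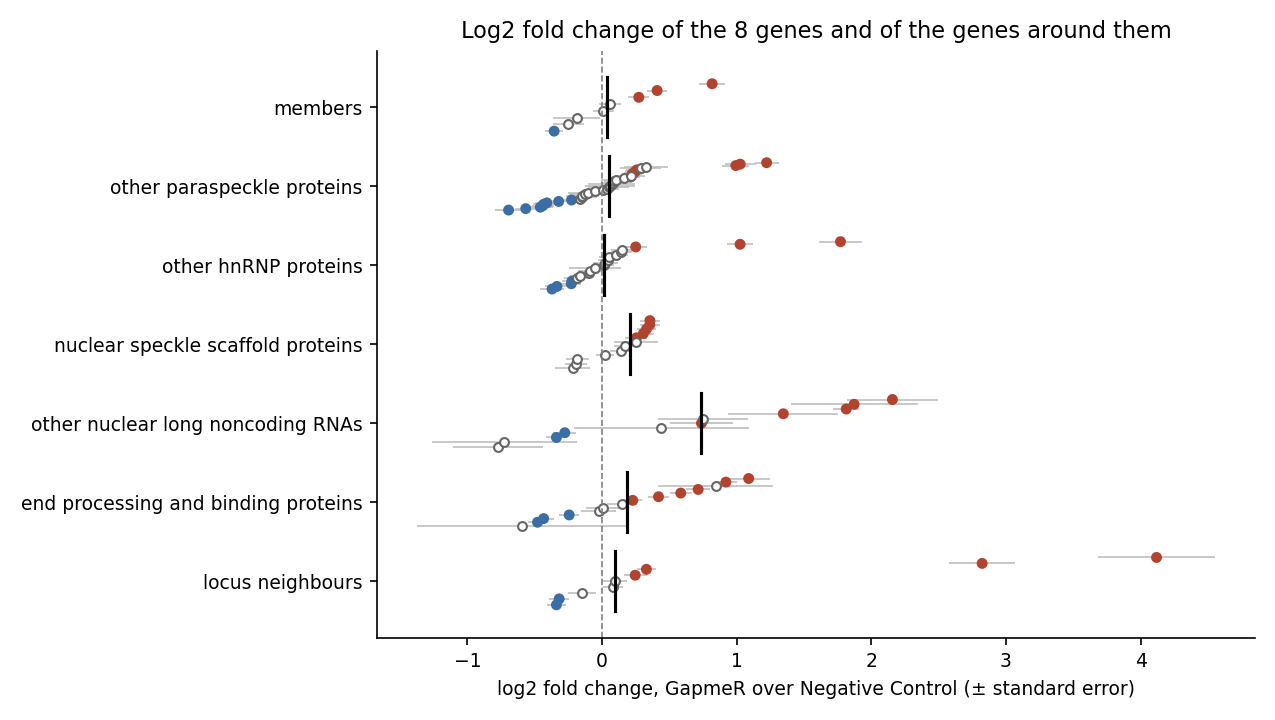
Log2 fold change after knockdown of the 8 genes (top row, members) and of the related gene lists, 1 point per gene, with standard errors as bars. Filled red and blue points had an adjusted p under 0.05 and were higher or lower, open points did not, and vertical black lines are medians. Nuclear speckle genes had 5 called higher and 0 lower, and other paraspeckle genes 8 and 8.

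Of 34 other genes of paraspeckle proteins, 8 were higher, 8 lower and 18 did not pass the test, with a median log2 fold change of 0.06 against 0.03 over all genes. The shares of all genes tested to set beside this list and those below are 25.4% higher and 20.0% lower. The highest were Rbmx, which encodes an RNA-binding protein of the X chromosome (31.6 ± 1.56 against 13.6 ± 0.60 CPM, log2 fold change 1.22, standard error 0.09, adjusted p = 1.673e-08), and the splicing regulators Hnrnph3 (1.03, adjusted p = 1.004e-05) and Hnrnph1 (0.99, adjusted p = 9.821e-07). Hnrnpa1, an abundant splicing repressor gene, fell from 1037 ± 104 to 641 ± 77.7 CPM (log2 fold change -0.69, adjusted p = 5.021e-05). Hnrnpa1 and Rbmx have processed copies in the genome, and how reads were split with these was not tested. With scaling by library size only, which shifted the median of all genes by 0.15 and the share of calls that were higher from 55.9% to 74.1%, the list had 12 higher and 6 lower. Without Negative Control 2 it had 4 higher and 6 lower.

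The other 19 hnRNP genes, relatives of Hnrnpk, had 3 higher and 4 lower (median 0.02), and 7 higher and 0 lower with scaling by library size only. Ptbp2, a splicing repressor gene known from neurons, rose from 5.38 ± 0.34 to 18.3 ± 3.20 CPM (log2 fold change 1.77, standard error 0.16, adjusted p = 5.794e-07). Hnrnpa2b1, which binds and transports RNA, rose by a log2 fold change of 1.03 (adjusted p = 2.957e-07). Hnrnpa3 (-0.37, adjusted p = 0.00352) and Hnrnph2 (-0.33, adjusted p = 0.00442) fell, and neither call remained without Negative Control 2 (-0.24, adjusted p = 0.160, and -0.23, adjusted p = 0.149) or with scaling by library size only (-0.22 and -0.19). The list had 2 calls without Negative Control 2, 4 without Negative Control 1 and 4 without GapmeR 3 and 4.

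Of 12 genes listed for proteins of the nuclear speckle, the home of Malat1, 5 were higher and 0 lower. Over all genes tested, 25.4% were higher and 20.0% lower. The median of the list was 0.21 against 0.03 over all genes. The largest changes were below 1.5-fold. Thrap3 (log2 fold change 0.36, adjusted p = 0.00126), Luc7l3 (0.35, adjusted p = 0.000973), Bclaf1 (0.33, adjusted p = 0.00146) and Ddx39b (0.31, adjusted p = 0.00382), all genes of RNA processing, were above both controls in every GapmeR sample. Son, which encodes a core scaffold of the speckle, was at 277 to 283 CPM after knockdown against 273 and 279 CPM (adjusted p = 0.824). Srrm2, also on the list, lay below both controls in every GapmeR sample but did not pass (-0.19, adjusted p = 0.0607). The list had 8 higher with scaling by library size only.

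Of 18 other nuclear long noncoding RNAs, 11 were tested, of which 5 were higher and 2 lower, with a median of 0.74. Pvt1, a noncoding neighbour of Myc, rose from 10.5 ± 0.30 to 36.8 ± 2.76 CPM (log2 fold change 1.81, standard error 0.10, adjusted p = 4.074e-10). Ftx, a noncoding RNA of the X-inactivation centre, had 54, 62, 38 and 52 counts in GapmeR 1 to 4 against 6 and 14 in the controls (2.16, adjusted p = 8.487e-05). The calls of Firre and Dleu2 rested on single samples. Firre, which takes part in nuclear organization, was at 6.52, 11.1, 5.93 and 13.5 CPM against 3.32 and 3.95 CPM (1.35, adjusted p = 0.0372) and lost its call without GapmeR 2 (1.25, adjusted p = 0.0999), without Negative Control 1 (1.25, adjusted p = 0.183) and without Negative Control 2 (1.501, adjusted p = 0.146). Dleu2, a noncoding RNA that hosts microRNAs (0.74, adjusted p = 0.0172), lost it without Negative Control 1 (0.52, adjusted p = 0.184). The list had 4 calls without Negative Control 1 and 3 without Negative Control 2, and 6 higher and 0 lower with scaling by library size only.

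Of 14 genes listed for processing the ends of Malat1 and Neat1 or binding them, 6 were higher and 3 lower, with a median of 0.19 against 0.03 over all genes. The list includes Slc7a2, which encodes a transporter and not such a protein. It had 0 to 6 counts and did not pass (adjusted p = 0.564). The ends shown above are cut by RNase P, and the fragment released from Malat1 is trimmed by RNase Z. The RNase P subunit genes Rpp40 (log2 fold change 1.09, adjusted p = 2.988e-05), Pop1 (0.92, adjusted p = 2.488e-07) and Pop4 (0.71, adjusted p = 9.645e-06) and the RNase Z gene Elac2 (0.58, adjusted p = 2.646e-05) rose. Pop1, for example, was at 37.9 to 43.3 CPM after knockdown against 21.9 and 20.5 CPM. Pop5, another subunit gene, was also higher (0.42, adjusted p = 0.000529). The subunit genes Pop7 (-0.48, adjusted p = 4.536e-05) and Rpp14 (-0.24, adjusted p = 0.0127) fell, and Rpp30, at 0.15 (adjusted p = 0.298), was among those that did not pass.

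Around Neat1 and Malat1 on chromosome 19, 4 of 9 neighbouring genes were higher and 2 lower, with a median of 0.10. Kcnk7, a potassium channel family gene, had 57, 79, 47 and 65 counts in GapmeR 1 to 4 against 1 and 5 in the controls (log2 fold change 4.12, standard error 0.43, adjusted p = 1.183e-06). Tigd3, a gene derived from a transposon, had 165, 148, 116 and 156 counts against 14 and 22 (2.82, standard error 0.25, adjusted p = 1.444e-07). Both were weakly expressed, and between them and Neat1 lay genes with small fold changes. Pola2, of DNA polymerase alpha (0.33, adjusted p = 0.00133), and Cdc42ep2, a Cdc42 effector gene (0.25, adjusted p = 0.0281), were higher, and Dpf2, of a chromatin remodelling complex (-0.34, adjusted p = 0.000982), and Frmd8 (-0.32, adjusted p = 0.00261), next to Neat1, were lower. Slc25a45 (0.10), Ehbp1l1 (0.08) and Ltbp3 (-0.15) did not pass. Without Negative Control 2 the list had 3 calls, and Dpf2 (-0.25, adjusted p = 0.0661), Frmd8 (-0.29, adjusted p = 0.0571) and Cdc42ep2 (0.17, adjusted p = 0.280) were not among them. Cdc42ep2 also lost its call without GapmeR 1 (0.23, adjusted p = 0.0666) or GapmeR 4 (0.23, adjusted p = 0.0588). With scaling by library size only, 6 were higher and 1 lower.

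**Figure D4:**
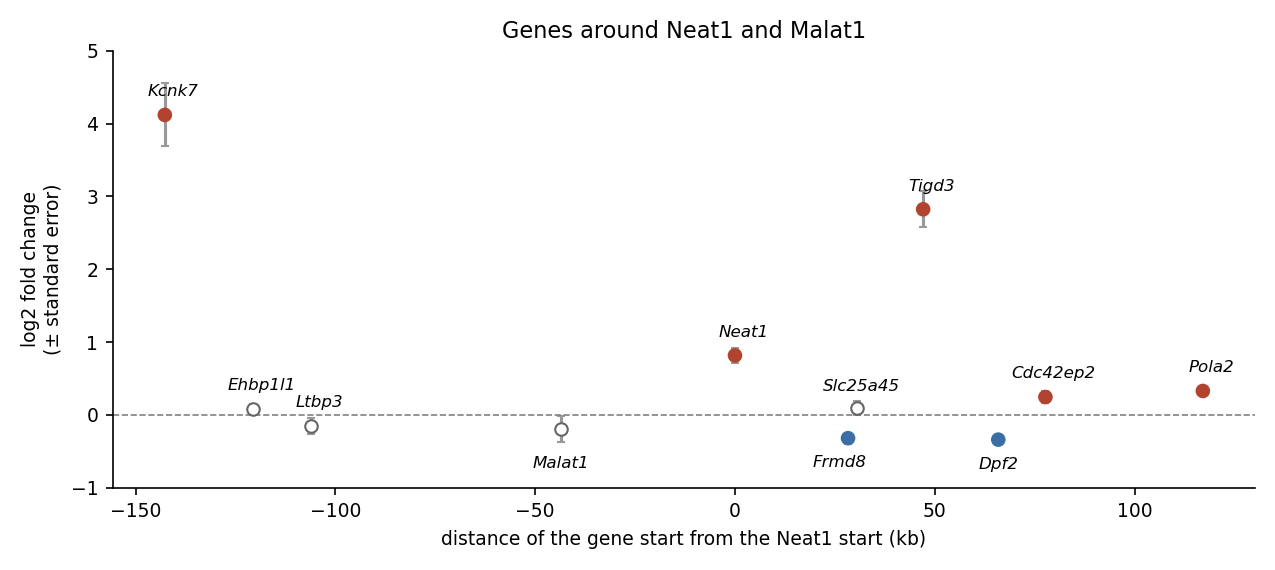
Log2 fold change of Neat1, Malat1 and 9 neighbouring genes against distance in kb from the start of Neat1, with standard errors as bars. Filled red and blue points had an adjusted p under 0.05 and were higher or lower, and open points did not. Kcnk7 (4.12) and Tigd3 (2.82) stand above Neat1 (0.82), and Malat1 (-0.19) is among the open points.

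Some of the 8 genes share their place with other genes, and since the strand setting of the counting is not given in the sources used here, such reads may be shared. The overlapping genes below were named after their values were seen. Gm16973 lies on the strand of Pspc1 and extends past its 3′ end, and it had 555, 681, 470 and 584 counts in GapmeR 1 to 4 against 35 and 53 in the controls (log2 fold change 3.50, standard error 0.15, adjusted p = 3.692e-11). Pspc1 itself had 965, 1529, 901 and 1045 counts against 1085 and 1189. Gm21992, which overlaps Rbm14 on the same strand and runs past its 3′ end, had 133, 189, 120 and 127 counts against 29 and 39 (1.86, standard error 0.21, adjusted p = 2.337e-06), beside 1557 to 1941 counts against 1052 and 1156 on Rbm14. Masp2, a complement protease gene on the opposite strand past the 3′ end of Tardbp, had 50, 63, 60 and 56 counts against 2 and 5 (3.8, standard error 0.40, adjusted p = 1.113e-06). The neighbours of Pspc1, Rbm14 and Tardbp thus had larger fold changes than the genes they overlap, a difference that was not tested. Rmi1, on the opposite strand past the 5′ end of Hnrnpk, was lower (-0.51, adjusted p = 0.00169). Zmym1 (0.35, adjusted p = 0.184) and Gm12940 (0.45, adjusted p = 0.216), which overlap Sfpq, did not pass, and on the opposite strands of Neat1 and Malat1 Frmd8os had 0 to 5 counts and Gm37376 had 0 in every sample.

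**Figure D5:**
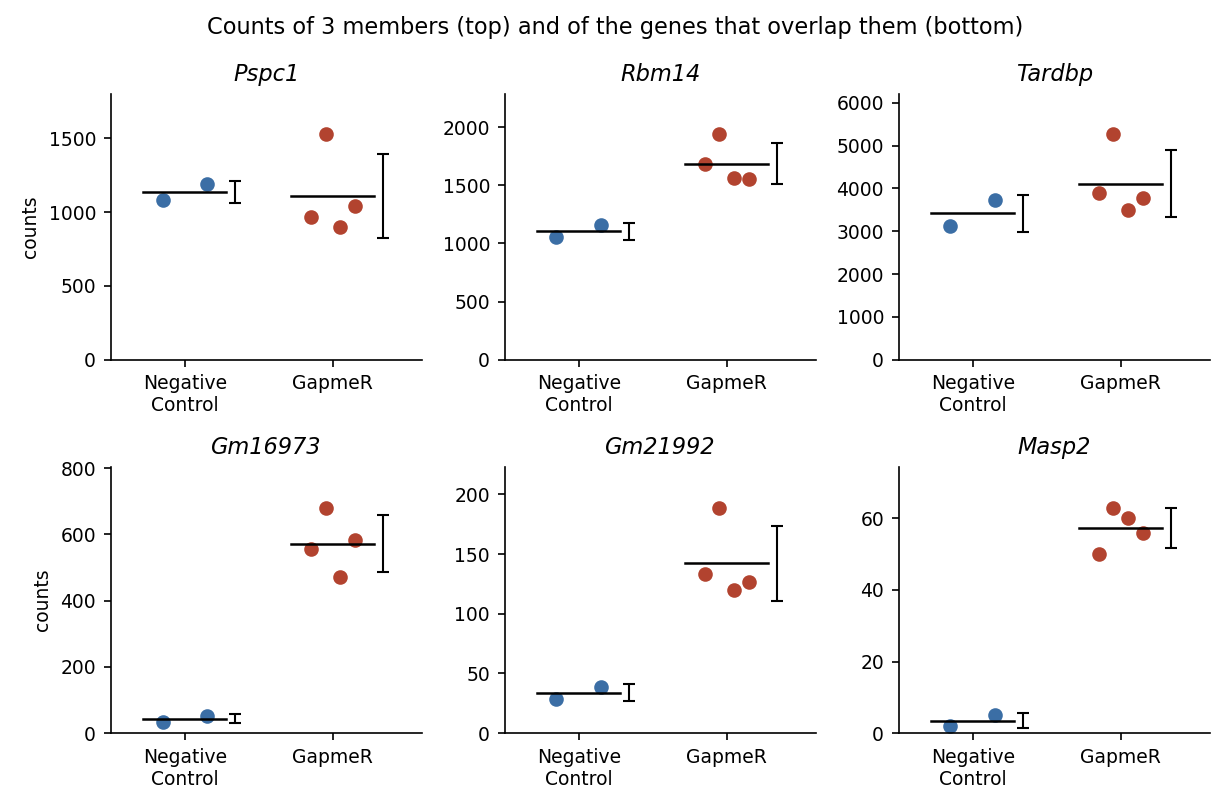
Read counts per sample of Pspc1, Rbm14 and Tardbp and of the genes that overlap them (bottom row), on linear axes from 0 that differ between panels. Points are samples, black lines group means, and bars at the right SDs, all of counts not normalized for depth. Gm16973, Gm21992 and Masp2 have more counts in every GapmeR sample than in either control, while the counts of Pspc1 and Tardbp overlap between groups.

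Copies elsewhere in the genome could also take reads. Matches of at least 90% identity over at least 200 bases to annotated pseudogenes were found for Nono (2), Tardbp (1) and Hnrnpk (2). Of these copies, 2 for Nono, 1 for Tardbp and 1 for Hnrnpk were in the count table. The counts on those were at most 0.345% of those on Nono, 0.143% of those on Tardbp and 3.64% of those on Hnrnpk. How reads that match both a gene and its copy were counted was not tested. Neat1, Malat1, Sfpq, Pspc1 and Rbm14 had 0 such matches.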

How the data were processed

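RNA was sequenced from 6 samples of bEND.3 cells. The authors deposited raw counts of reads for each Ensembl gene, without normalization. Ribosomal RNA was depleted, while the labels name an ultra-low-input library kit. Paired reads went through the bcbio-nextgen pipeline and STAR to mm10. The submitters' processing notes name Trimmomatic 0.36, STAR 2.5.2b and Subread 1.5.2, with no roles. The strand setting and Ensembl release are not given in the sources used here. The paper gives 4 samples for each group, and 4 GapmeR and 2 Negative Control samples were analysed here. Another 1 column of counts in the table belongs to none of these samples and was not used.

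A gene entered the test with 5 or more counts in 2 or more samples (18234 of 49315), and testing was done with edgeR 4.0.16 in R 4.3.3 (TMM, robust quasi-likelihood, Benjamini-Hochberg adjustment over all genes). CPM are TMM-normalized, with factors of 1.02 to 1.05 in the GapmeR samples and 0.931 to 0.936 in the controls. Total counts were 29261988 to 37117934, and 3 counts correspond to 0.077 to 0.11 CPM, which allows for counting error only. Between replicates, chi-square per degree of freedom was 4.12 to 17.8, so that no samples agreed within sampling noise. GapmeR 2 and GapmeR 3 lay at opposite ends of the second principal component.

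The 8 genes and the lists were chosen with earlier results of these data known. Genes named from a list are up to 4 with the largest change among those with an adjusted p under 0.05 and a mean of at least 1 CPM, the listed neighbours of Neat1 (1 further neighbour is not reported here), and the 3 genes most like Neat1 and Malat1. Son, Srrm2, Slc7a2, Pop5, Pop7, Rpp14 and Rpp30, Gja1 and the other single cell type markers, and the overlapping genes were named after their values were seen. Alternatives were scaling by library size only or by the size factors of DESeq2 1.42.0, its Wald test, limma-voom (3.58.1), other filters on low counts, a 1.5-fold minimum, the replicate block, and each sample left out. Leaving out GapmeR 3 and 4 together, and repeating the ratios without each sample, were chosen after seeing the data. The main edgeR fit, the Wald test of DESeq2 and limma-voom were first run on simulated data, in which far fewer genes changed than were called here. The other alternatives were not run on simulated data. Gene coordinates at mm10 come from RefSeq, and sequences and lengths from GRCm39 with GENCODE M39. Pseudogene matches used blastn 2.17.0.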

Additional observations from a re-analysis of the deposited data

Results flagged for a closer look

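In 5 of 34 genes examined, 1 of the 4 GapmeR samples stood apart from the other 3 by a gap that was a large part of the group's range, where chance gives about 5% of groups. Nono was lowest in GapmeR 2 (313 CPM against 327 to 330 CPM), a gap of 0.846 of the range, and stayed below both controls there. Hnrnpa2b1 was highest in GapmeR 2 (599 CPM), with a gap of 0.950 of the range, and Ddx39b was highest in GapmeR 4 (206 CPM), with a gap of 0.894. Ftx (1.23 CPM, gap 0.955) and Pop4 (20.8 CPM, gap 0.933) were lowest in GapmeR 3. In each of the 5 genes, the sample that stood apart lay on the same side of both controls as the other GapmeR samples.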

How the results depend on the processing

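Neat1 (log2 fold change 0.70 to 0.98), Nono (-0.36 to -0.21) and Rbm14 (0.39 to 0.56) kept their direction and their call in all 14 alternatives run. Sfpq lost its call with the replicate block (0.2038), without GapmeR 3 and 4 (0.2038) and without either control, and Pspc1 gained one with no filter on low counts (-0.2527). When single samples were left out, the log2 fold change ranged from -0.4375 to 0.1596 for Malat1, 0.2512 to 0.3069 for Sfpq, -0.3562 to -0.1807 for Pspc1, -0.0023 to 0.1082 for Tardbp and -0.0167 to 0.0616 for Hnrnpk, whose sign changed without GapmeR 2, GapmeR 4 (-0.0014) or Negative Control 2 (-0.0042). The cause was not tested.

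A minimum of 1.5-fold left 1 of the 8 genes called, 4 other paraspeckle genes, 2 other hnRNP genes, 0 nuclear speckle genes, 4 end processing genes and 2 neighbours. Nuclear speckle calls numbered 8 with scaling by library size only and 8 with no filter on low counts, and hnRNP calls numbered 4 without GapmeR 3 and 4. Leaving out single samples gave 10 to 17 calls among other paraspeckle genes, 2 to 9 among other hnRNP genes, 3 to 8 among nuclear long noncoding RNAs and 3 to 6 among neighbours. Of 487 values for 35 other named genes, 463 kept direction and call, 20 lost the call, 4 gained it and 0 changed sign.

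Whether the numbers of the samples pair them could not be told. Deviations of same-numbered samples correlated at -0.11 and 0.17. With 2 controls, however, the deviations of one are those of the other with the sign reversed, so that these values cannot decide it. With the replicate block, which rests on 4 samples, 3 of the 8 genes were called, and Neat1 was at 0.89. With 2 controls, any value rests heavily on each of them, and the folds of Kcnk7 and Ftx, with few control counts, and of Gm39822, with few counts after knockdown, are imprecise.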
